A study of Mus musculus with 8 samples.

Results

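Alveolar macrophages are the resident phagocytes of the air spaces, and 10 genes listed for them were followed in lungs with and without the nitric oxide synthases. The list does not make these genes particular to alveolar macrophages, and which lung cells gave the tags of each was not measured. The genes were fixed by symbol: Marco, Itgax, Pparg, Mrc1, Abcg1, Abca1, Lpl, Siglec5, Csf2ra and Csf2rb. All 10 had a row among the 15728 genes of the deposited table, and all 10 passed the filter on low values that left 14065 genes to test. The rule uses symbols and no measured value. Siglec5 is the deposited symbol of the gene that GENCODE M21 names Siglecf, the sialic acid binding lectin whose protein marks mouse alveolar macrophages and eosinophils.

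The samples were whole lungs of 4 C57BL/6J wild type mice and 4 triply n/i/eNOSs-/- mice, which lack the neuronal, inducible and endothelial isoforms and are called the knockout here. All 8 mice were 4 weeks old and unexposed, the labels give C57BL/6J as the background of both genotypes, and the series is titled for a role of these enzymes in pulmonary emphysema. The labels do not say which cells or exons each deletion affects, and give no sex, litter or batch beyond the joint sequencing of the 8 libraries. Cap analysis of gene expression (CAGE) was used, a method that reads RNA from its capped 5′ end, so 1 tag stands for 1 transcript start and not for a length of RNA. Values are deposited CPM, the tags of a gene scaled to a fixed library total, means are given ± SD, and a log2 fold change is knockout minus wild type on log2(CPM + 0.5), which understates changes of low genes. Calls required a limma adjusted p under 0.05, with adjustment over all 14065 genes. In whole tissue, more cells of a type and more RNA per cell cannot be told apart.

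Library totals recovered from the CPM steps were 15598154 to 18593913 reads in wild type and 13014134 to 15096188 in the knockout, so each knockout library was shallower than each wild type library. Nos3, the endothelial synthase, stood at 18.18, 22.75, 19.8 and 18.59 CPM in wild type libraries 1 to 4 and at 5.56, 8.32, 8.83 and 6.76 CPM in knockout libraries 1 to 4 (log2 fold change -1.38, limma adjusted p = 4.58e-05). How the deletion lies to the transcript start is a point not given in the sources used here, and the remaining tags make this a weak check of the labels. Nos1 and Nos2 were not analysed here. Whole lung was recognisable by Sftpc, the surfactant protein C gene of alveolar type 2 cells, at 75406 ± 7581 CPM in wild type lungs and 40739 ± 4973 CPM in the knockout. Knockout library 1 had the highest Bhlhe40 and Bhlhe41 of its group, and knockout library 4 was the shallowest, so changes without either are given below for some genes.

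As background, alveolar macrophages mature around birth when fetal monocytes receive granulocyte-macrophage colony-stimulating factor (GM-CSF), made chiefly by alveolar epithelium, together with TGF-beta. The GM-CSF receptor pairs a ligand-binding alpha chain, Csf2ra, with a signalling beta chain, Csf2rb, and it induces Pparg, the nuclear receptor PPARγ that drives the lipid programme of these cells. Their daily task is to clear used surfactant. Scavenger and lectin receptors such as Marco and Mrc1 bind particles and glycans, Lpl releases fatty acids from triglyceride, and Abca1 and Abcg1 move cholesterol out of the cell. Loss of GM-CSF signalling leaves surfactant in the air spaces, the disease called pulmonary alveolar proteinosis.

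Because CAGE counts transcript starts, the sequences just upstream of the annotated starts are shown for 5 cell surface genes, 2 that were called in the comparison below (Marco and Csf2ra) and 3 that were not (Mrc1, Siglec5 and Itgax). Each line gives 200 bases ending at the base before the RefSeq start on GRCm38.p6, 5′ to 3′ on the gene's strand, with capitals marking the motif GAGGAA, which appears as TTCCTC when it lies on the opposite strand. This motif is a purine-rich core of the kind bound by PU.1, the ETS factor of myeloid cells. The stretches are chr1:120505025-120505224 on the minus strand, chr19:61228419-61228618 on the minus strand, chr2:14229214-14229413 on the plus strand, chr7:43351141-43351340 on the plus strand and chr7:128129350-128129549 on the plus strand. The submitters' notes name mm9 for the reads, so these positions are those of the annotation and not of the tags.
Marco: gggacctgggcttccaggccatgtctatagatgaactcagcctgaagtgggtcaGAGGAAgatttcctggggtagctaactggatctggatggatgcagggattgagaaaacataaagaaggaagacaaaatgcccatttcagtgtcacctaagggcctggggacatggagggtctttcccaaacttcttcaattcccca
Csf2ra: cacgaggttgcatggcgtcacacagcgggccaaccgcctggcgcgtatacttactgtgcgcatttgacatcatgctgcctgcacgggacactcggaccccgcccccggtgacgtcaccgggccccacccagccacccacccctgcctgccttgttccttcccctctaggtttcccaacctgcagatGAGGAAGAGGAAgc
Mrc1: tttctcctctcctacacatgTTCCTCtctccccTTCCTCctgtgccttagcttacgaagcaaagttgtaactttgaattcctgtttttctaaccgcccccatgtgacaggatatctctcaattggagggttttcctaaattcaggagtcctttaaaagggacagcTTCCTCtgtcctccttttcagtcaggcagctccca
Siglec5: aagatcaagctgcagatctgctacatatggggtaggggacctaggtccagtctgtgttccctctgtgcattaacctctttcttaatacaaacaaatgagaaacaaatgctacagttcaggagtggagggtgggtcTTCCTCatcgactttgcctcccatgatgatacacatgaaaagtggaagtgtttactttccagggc
Itgax: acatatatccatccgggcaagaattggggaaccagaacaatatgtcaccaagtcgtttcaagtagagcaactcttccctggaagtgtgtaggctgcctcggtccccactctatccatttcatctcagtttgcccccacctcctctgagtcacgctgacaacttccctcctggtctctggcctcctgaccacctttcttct

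The purine core stood 2 times in the Csf2ra stretch, starting 14 and 8 bases before the start, and once in Marco, 146 bases before it. Mrc1 held it 3 times, at -180, -167 and -35 from the start, Siglec5 once at -65, and Itgax did not hold it. RefSeq windows of 300 bases (250 before the start and 50 after) were at hand for 7 of the 10 genes. They held GAGGAA on either strand for 5 of them, the 4 above and Pparg, which had it in 1 of its 3 windows, and not for Itgax or Abca1. Of all 32544 windows of that length, 28.1% held it. TATAAA, the TATA box, was found in windows of Abca1 and Pparg and in 13.6% of all windows. GGGCGG, the GC box, was found for Abca1, Csf2ra, Mrc1 and Pparg and in 35.9% of all windows. Marco had no CpG in its window (observed over expected 0, against a median of 0.387 over all windows). These matches describe letters in a window, not bound sites.

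Of the 10 genes, 4 were called higher in the knockout (Marco, Abcg1, Lpl and Csf2ra), 0 were called lower and 6 were not called. Over all genes tested, 16.6% were called higher and 14.3% lower. At an unadjusted p under 0.05 the limma fit had 5 of the 10 higher, the fifth being Mrc1, and 22.7% of all genes. All 4 knockout libraries stood above all 4 wild type libraries for 5 genes, the called ones and Itgax, as did 16.8% of all genes. The mean log2 fold change was positive for 9 of 10, with Pparg the exception, and positive for 51.6% of all genes. The median log2 fold change was 0.23 over the 10 and 0.01 over all genes tested. Together the 10 genes made up 211.9 to 228.52 CPM in wild type libraries and 264.02 to 289.99 CPM in knockout libraries. Most of that rise lay in Marco, Abcg1 and Lpl, so the sum largely repeats their calls. The sum of other alveolar macrophage genes, given below, was lower in every knockout library.

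**Figure D1:**
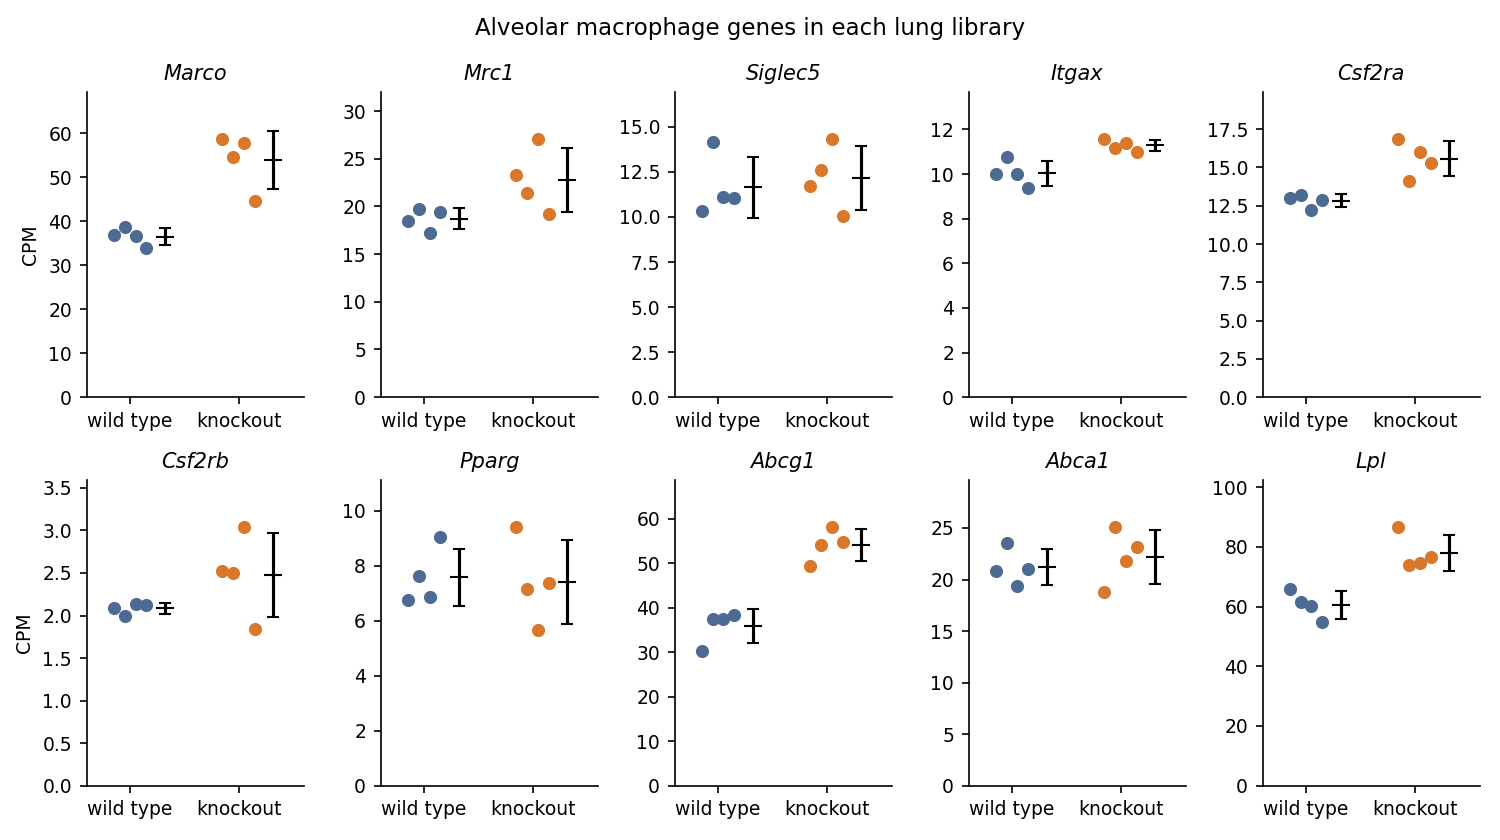
CPM (vertical axes, each from 0) of the 10 alveolar macrophage genes in each of the 4 wild type (blue) and 4 knockout (orange) lungs; points are single libraries in the order 1 to 4, and bars give the mean ± SD of a genotype. The genotypes do not overlap for Marco, Itgax, Csf2ra, Abcg1 and Lpl, and overlap for Mrc1, Siglec5, Csf2rb, Pparg and Abca1.

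Marco, a class A scavenger receptor that binds bacteria and inhaled particles, rose. Its level was 36.78, 38.61, 36.72 and 33.79 CPM in the wild type lungs and 58.76, 54.5, 57.76 and 44.49 CPM in the knockout lungs. The wild type values lay close together, and the knockout values were all above them, with library 4 lowest. The means were 36.5 ± 1.99 and 53.9 ± 6.52 CPM (n = 4 each), a log2 fold change of 0.55 (SE 0.0911, 95% interval 0.35 to 0.75, limma adjusted p = 0.00133). Without knockout library 4 it was 0.64, and without library 1 it was 0.51.

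Mrc1, the mannose receptor CD206, takes up mannosylated glycoproteins and is also carried by interstitial macrophages and lymphatic endothelium. Its values were 18.48, 19.74, 17.26 and 19.43 CPM in wild type lungs and 23.32, 21.37, 27.12 and 19.21 CPM in the knockout. The first 3 knockout libraries lay above all wild type ones, and library 4 lay below wild type libraries 2 and 4. The log2 fold change of 0.27 (SE 0.103, 95% interval 0.04 to 0.49) was not called (limma adjusted p = 0.0726). Leaving out knockout library 4 gave 0.34 and a call (limma adjusted p = 0.0259; 0.0259 to 0.193 over 18 alternatives).

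Siglec5 was measured at 10.35, 14.14, 11.09 and 11.03 CPM in wild type lungs and at 11.72, 12.58, 14.35 and 10.07 CPM in the knockout. The genotypes overlapped throughout, with the highest wild type library near the highest knockout library. Its log2 fold change was 0.06 (SE 0.126, 95% interval -0.22 to 0.34, limma adjusted p = 0.746), and the sign turned without knockout library 3 (-0.019).

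Itgax encodes CD11c, an integrin chain that alveolar macrophages share with dendritic cells. Wild type libraries held 9.99, 10.76, 9.99 and 9.36 CPM and knockout libraries 11.59, 11.16, 11.39 and 10.99 CPM. The knockout values lay within a narrow range just above the highest wild type value. The log2 fold change of 0.16 (SE 0.0811, 95% interval -0.01 to 0.34) was not called (limma adjusted p = 0.146).

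Csf2ra, the GM-CSF binding chain, rose by a smaller amount. It was found at 12.98, 13.23, 12.24 and 12.89 CPM in wild type lungs and at 16.89, 14.13, 16.01 and 15.29 CPM in the knockout. The groups did not overlap, and knockout library 2 came closest to wild type. Means of 12.8 ± 0.42 and 15.6 ± 1.17 CPM gave a log2 fold change of 0.27 (SE 0.0815, 95% interval 0.09 to 0.45, limma adjusted p = 0.0283). This call ended in 7 of 18 alternatives: with DESeq2, without any 1 wild type library, and without knockout library 1 or 3 (adjusted p = 0.0195 to 0.0730 over the 18, log2 fold change 0.23 to 0.31).

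Csf2rb, the signalling chain, was the lowest of the 10 in CPM, with 24 to 44 reads a library. It stood at 2.09, 1.99, 2.14 and 2.12 CPM in wild type lungs and at 2.52, 2.5, 3.04 and 1.84 CPM in the knockout. Knockout library 4 lay below every wild type library and the other 3 above. Its log2 fold change of 0.19 (SE 0.146, 95% interval -0.13 to 0.51) was not called (limma adjusted p = 0.356), nor was the 0.30 without knockout library 4 (limma adjusted p = 0.131). The value is uncertain, because the first 200 nt of its transcripts are 100% identical to those of Csf2rb2, the neighbouring beta chain of the mouse IL-3 receptor, and reads of 75 nt from the 5′ end fall in that stretch.

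Csf2rb2 was called higher, at 19.5, 17.53, 17.38 and 18.85 CPM in wild type lungs and 18.75, 29.62, 26.98 and 25.05 CPM in the knockout (log2 fold change 0.43, limma adjusted p = 0.0226). Knockout library 1 lay within the wild type range and the other 3 above it. The call ended without wild type library 2 or 3 or knockout library 2 or 3 (adjusted p = 0.00111 to 0.0639 over 18 alternatives). Summed over both beta chains, the level was 20.4 ± 1.05 CPM in wild type lungs and 27.6 ± 4.72 CPM in the knockout, where library 1, at 21.27 CPM, lay below the highest wild type value of 21.59 CPM. The sum was not tested.

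Pparg, which acts between the GM-CSF receptor and the lipid genes, was the member with a negative change. It stood at 6.76, 7.64, 6.87 and 9.04 CPM in wild type lungs and at 9.41, 7.17, 5.66 and 7.38 CPM in the knockout. The highest and the lowest of the 8 values were both from knockout libraries. Means of 7.58 ± 1.05 and 7.41 ± 1.54 CPM differed by a log2 fold change of -0.04 (SE 0.147, 95% interval -0.37 to 0.28, limma adjusted p = 0.848). The sign turned without wild type library 4 (0.04) and without knockout library 3 (0.07). Its 3 RefSeq windows mark separate starts, and the table has 1 value for the gene.

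Abcg1, which passes cholesterol to high density lipoprotein and whose loss fills alveolar macrophages with lipid, rose by about as much as Marco. Its wild type values were 30.32, 37.43, 37.59 and 38.4 CPM and its knockout values 49.42, 54.23, 58.18 and 54.86 CPM. Wild type library 1 lay apart below its group, and every knockout library lay well above every wild type one. The means were 35.9 ± 3.77 and 54.2 ± 3.61 CPM, with a log2 fold change of 0.59 (SE 0.0871, 95% interval 0.40 to 0.78, limma adjusted p = 0.000689). Without wild type library 1 it was 0.51 and still called (limma adjusted p = 0.00143).

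Abca1, the related transporter that loads cholesterol onto apolipoprotein A-I, stood at 20.81, 23.56, 19.34 and 21.03 CPM in wild type lungs and at 18.81, 25.09, 21.81 and 23.13 CPM in the knockout. Here too the knockout held both the highest and the lowest library. The log2 fold change was 0.06 (SE 0.0983, 95% interval -0.15 to 0.28, limma adjusted p = 0.660), and 0.14 without knockout library 1 (limma adjusted p = 0.270).

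Lpl, lipoprotein lipase, rose from 60.6 ± 4.59 to 78.0 ± 5.92 CPM. Wild type libraries held 65.97, 61.42, 60.16 and 54.81 CPM and knockout libraries 86.64, 73.77, 74.67 and 76.76 CPM. The groups did not overlap, and knockout library 1 was the highest. Its log2 fold change was 0.36 (SE 0.0758, 95% interval 0.19 to 0.53, limma adjusted p = 0.00489), and 0.31 without that library. Lung lipofibroblasts and fat cells also make Lpl, and lists of their genes are given below.

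**Figure D2:**
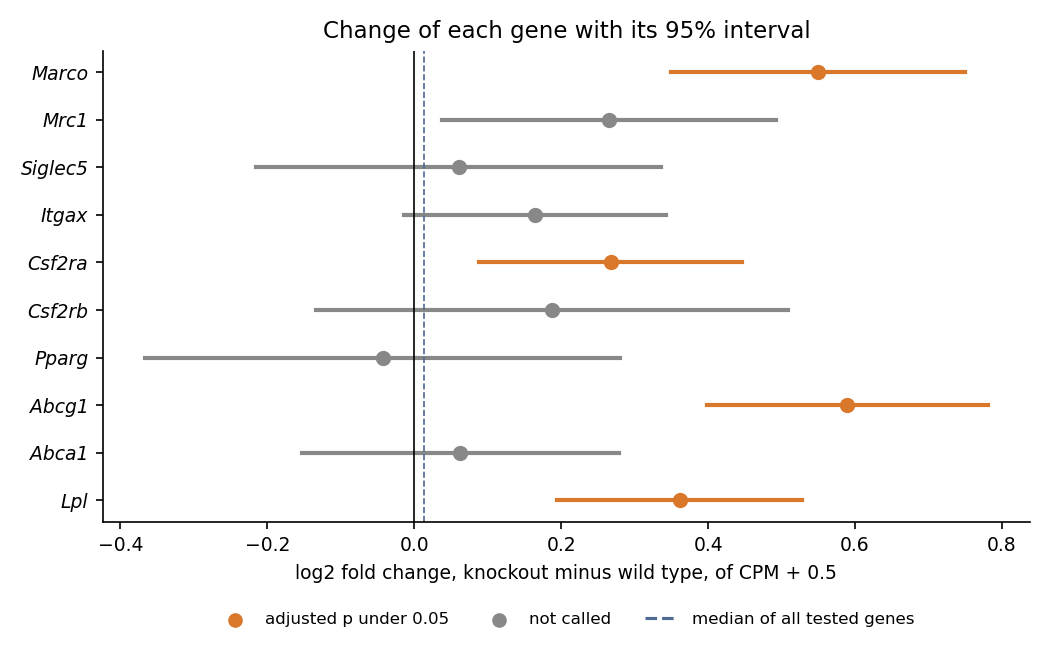
Log2 fold change (knockout minus wild type, of CPM + 0.5, horizontal axis) of each of the 10 genes, with its 95% interval from limma; orange marks an adjusted p under 0.05 and the dashed line the median of all tested genes (0.01). Abcg1 (0.59), Marco (0.55), Lpl (0.36) and Csf2ra (0.27) are called, and the intervals of Siglec5, Itgax, Csf2rb, Pparg and Abca1 include 0.

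The spread between libraries differed from gene to gene. Among wild type libraries the coefficient of variation ran from 3.19% for Csf2rb to 14.5% for Siglec5, and among knockout libraries from 2.33% for Itgax to 20.8% for Pparg. Counting error was not separated from it. Csf2rb had 24 to 44 reads a library and Itgax 143 to 200, so their small values do not measure a spread between animals. Knockout library 4 held the lowest knockout value of 5 of the 10 genes, and library 1 the highest of 5 and library 3 of 4. Wild type library 2 held the highest wild type value of 6. No library was the highest or the lowest of its genotype for all 10.

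Ratios within a library compare genes of related role under the same depth and scaling. The pairs were chosen after the single values were seen. The log2 ratio of Abcg1 over Abca1, both sterol exporters, was 0.53, 0.66, 0.94 and 0.85 in wild type and 1.37, 1.10, 1.40 and 1.23 in the knockout, so that every knockout library lay above every wild type one. Its mean went from 0.75 ± 0.19 to 1.27 ± 0.14, a difference of 0.53 (exact two-sided permutation p = 0.0286, the smallest that 4 against 4 libraries can give, and 0.0571 adjusted over 4 pairs). Marco over Mrc1, both scavenging receptors, went from 0.94 ± 0.12 to 1.23 ± 0.12, again without overlap (exact permutation p = 0.0286, adjusted 0.0571). Csf2ra over Csf2rb was 2.37 ± 0.08 in wild type and 2.45 ± 0.24 in the knockout (exact permutation p = 0.6, adjusted 0.6). Itgax over Siglec5, both surface markers, was -0.20 ± 0.14 in wild type and -0.10 ± 0.19 in the knockout (exact permutation p = 0.4, adjusted 0.533). None of the 4 passed 0.05 after adjustment. Abcg1 over Abca1 and Marco over Mrc1 already had the smallest possible p, so with the other pairs as they were they could not pass. Because the pairs were chosen after values were seen, these p-values are descriptive.

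**Figure D3:**
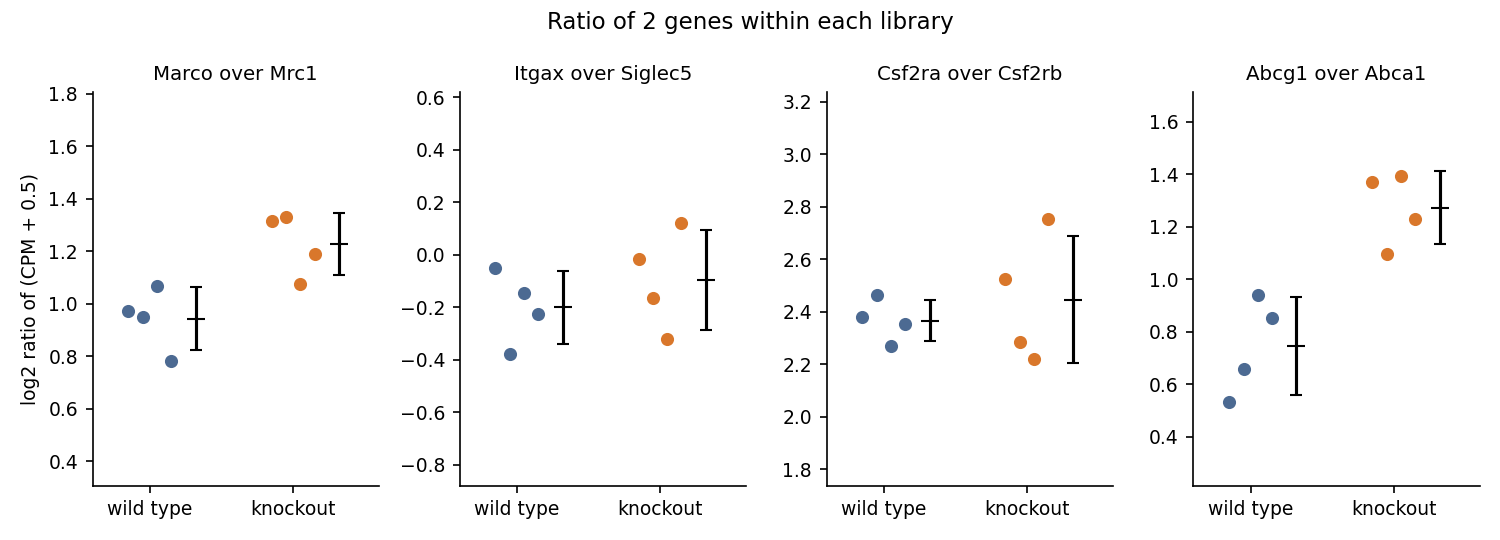
Log2 ratio of (CPM + 0.5) of a pair of genes within each library (vertical axes, 1 span, not from 0), in 4 wild type (blue) and 4 knockout (orange) lungs; bars give mean ± SD. Abcg1 over Abca1 and Marco over Mrc1 lie higher in every knockout library, while Itgax over Siglec5 and Csf2ra over Csf2rb overlap. The last ratio is uncertain, because Csf2rb shares its 5′ end with Csf2rb2.

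For every list here and below, the shares to set beside its counts are those of all genes tested. These were 16.6% called higher and 14.3% called lower, and no list was tested as a set. Other genes known from alveolar macrophages were taken as a list of 30, of which 25 were in the table and 24 were tested. Of these 8 rose, 1 fell and 15 were not called, with a median log2 fold change of -0.00. With no filter, or without knockout library 2, 2 fell. The summed list was 1910.62 to 2081.05 CPM in wild type lungs and 1555.92 to 1859.22 CPM in the knockout. That difference was largely the fall of Fabp5, whose value is uncertain as set out below. Cd200r1, an inhibitory receptor, rose from 5.55 ± 0.23 to 8.91 ± 0.58 CPM (log2 fold change 0.64, limma adjusted p = 0.000626). Ear2, an eosinophil-associated ribonuclease that mouse alveolar macrophages express, went from 119 ± 12 to 165 ± 8.44 CPM (adjusted p = 0.00128). Olr1, a receptor for oxidised lipoprotein, rose from 9.24 ± 1.23 to 13.5 ± 0.83 CPM (adjusted p = 0.00343). F7, Msr1, Perp, Serpinb1a and Plet1 (deposited as 1600029D21Rik) rose as well. Ear2 has near-identical copies that make its value uncertain.

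Fabp5, a fatty acid binding protein, was the gene that fell, from 241 ± 19.2 to 4.54 ± 0.27 CPM (log2 fold change -5.58, limma adjusted p = 3.03e-12). It has the listed near-identical copy Gm6166, and summed with that copy the mean went from 242 ± 19.0 to 142 ± 16.1 CPM, so its single value is uncertain. Chi3l3, the chitinase-like protein Ym1, was at 318.31, 372.38, 273.45 and 338.37 CPM in wild type lungs and 314.52, 130.78, 298.2 and 288.15 CPM in the knockout. Knockout library 2 lay far below the rest (log2 fold change -0.41, limma adjusted p = 0.210, and -0.11 without that library). Its listed near-identical copy Chil4 makes this value uncertain as well. Car4 stood at 131 ± 3.72 CPM in wild type lungs and 131 ± 7.93 CPM in the knockout, and Cd9 at 469.7 ± 29.3 and 462 ± 42.4 CPM.

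Of 21 tested genes of GM-CSF and TGF-beta signals and the factors that fix macrophage identity, 7 rose and 3 fell, with a median log2 fold change of -0.05. Without knockout library 2 or 3, 4 rose. Among ligands, Csf2, which encodes GM-CSF, stood at 10.17, 10.16, 8.6 and 9.36 CPM in wild type lungs and at 8.02, 8.11, 7.32 and 8.14 CPM in the knockout, lower in every knockout library. It missed the threshold (log2 fold change -0.26, limma adjusted p = 0.0515; 0.0373 to 0.131 over 18 alternatives) and passed it in 5 of them. These were the stricter filter, TMM scaling, median-ratio scaling, edgeR and the fit without wild type library 3. Csf1, the macrophage growth factor, rose from 46.1 ± 3.73 to 57.0 ± 5.87 CPM (limma adjusted p = 0.0220), a call that ended without wild type library 1 or 4 or knockout library 2 or 3 (0.00311 to 0.0613).

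Among receptors and signal carriers, Csf1r, the receptor of Csf1, rose from 33.4 ± 1.91 to 42.1 ± 2.55 CPM (limma adjusted p = 0.00582). Tgfbr1, the signalling TGF-beta receptor, rose from 44.8 ± 1.55 to 58.6 ± 1.20 CPM (adjusted p = 0.000727), and Tgfbr2 rose too. Jak2, the kinase attached to the GM-CSF beta chain, fell from 29.0 ± 1.56 to 22.3 ± 3.42 CPM (adjusted p = 0.0168). That call ended without knockout library 3 (adjusted p = 0.0510; 0.00127 to 0.0510 over 18 alternatives). Sfpi1, the deposited name of Spi1, which encodes PU.1, rose from 65.7 ± 3.51 to 86.9 ± 2.67 CPM (log2 fold change 0.40, adjusted p = 0.000782). Klf4 stood at 66.5 ± 9.45 and 78.4 ± 17.6 CPM.

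Bhlhe40 and Bhlhe41, paired repressors needed for alveolar macrophage self-renewal that also belong to the circadian clock, fell. Bhlhe41 went from 28.47, 24.52, 27.43 and 24.75 CPM in wild type to 14.71, 9.81, 10.97 and 10.53 CPM in the knockout (log2 fold change -1.17, limma adjusted p = 5.41e-05). Bhlhe40 went from 51.5 ± 5.47 to 25.7 ± 7.74 CPM (adjusted p = 0.00130). The groups did not overlap for either, and knockout library 1 was the highest of the knockout for both. Many lung cell types express them.

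Lipid handling genes of the PPARγ and liver X receptor (LXR) programmes were a list of 27, with 26 tested. Of these 6 rose and 0 fell, at a median log2 fold change of 0.03, and DESeq2 called 2 lower. Angptl4, a PPAR target whose product inhibits lipoprotein lipase, rose from 18.36, 26.78, 11.49 and 16.73 CPM to 34.91, 61.06, 69.77 and 58.86 CPM (log2 fold change 1.6, limma adjusted p = 0.000840). Every knockout library lay above every wild type one. Lpcat3, an LXR target that remodels phospholipids, rose from 58.0 ± 2.58 to 90.4 ± 8.24 CPM (adjusted p = 0.000152). Npc1, which exports cholesterol from lysosomes, went from 35.0 ± 3.52 to 47.6 ± 4.59 CPM (adjusted p = 0.00432).

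Lipa, the lysosomal acid lipase, rose from 56.8 ± 2.08 to 68.3 ± 4.36 CPM (limma adjusted p = 0.0114), and Nceh1 and Abca7 rose too. Of the LXR genes themselves, Nr1h3 stood at 50.4 ± 3.65 CPM in wild type lungs and 52.3 ± 3.55 CPM in the knockout (adjusted p = 0.619). Nr1h2 stood at 49.0 ± 2.42 and 50.1 ± 0.34 CPM (adjusted p = 0.714). Apoe, which encodes a lipid carrier made by macrophages and other cells, stood at 1413 ± 122 and 1234 ± 108 CPM (adjusted p = 0.0856; 0.00976 to 0.222 over 18 alternatives), and was called lower with quantile normalization and DESeq2. Cd36, a fatty acid receptor abundant in lung endothelium, stood at 644 ± 33.7 and 687 ± 24.3 CPM.

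Pan-macrophage genes were 16, all tested, with 6 higher and 1 lower and a median log2 fold change of 0.21. Trem2, a lipid-sensing receptor, rose from 3.0 ± 0.37 to 7.35 ± 0.49 CPM (log2 fold change 1.17, limma adjusted p = 3.75e-05). Tyrobp, the adaptor of Trem2, rose too, with Mertk, Ptprc and Cd74. The 6 higher calls became 4 with TMM or median-ratio scaling, edgeR and DESeq2, and without wild type library 1, 2 or 3 or knockout library 1 or 3, and Tyrobp (adjusted p = 0.0394) and Mertk (adjusted p = 0.0487) lay nearest the threshold. Lyz1 rose from 249.7 ± 33.0 to 381 ± 40.7 CPM (adjusted p = 0.00153), while Lyz2, the macrophage lysozyme that type 2 cells also make, fell from 5347 ± 359 to 3515 ± 358 CPM (adjusted p = 0.000472). Cd68, a lysosomal marker of macrophages, stood at 53.8 ± 2.79 and 56.4 ± 4.96 CPM (adjusted p = 0.557). Emr1, the deposited name of the F4/80 gene, stood at 11.2 ± 1.8 and 13.2 ± 2.02 CPM (adjusted p = 0.229). Summed without Lyz2, the list made up 2149.99 to 2226.68 CPM in wild type lungs and 2410.62 to 2752.89 CPM in the knockout. Cd74 (from 826 ± 34.1 to 987 ± 72.5 CPM) and Lyz1 gave the largest rises in that sum, and only Fcer1g had a lower knockout mean there. The sum was not taken without Cd74 and Lyz1. The sum with Lyz2 ran from 7214.44 to 7928.71 and from 5592.01 to 6590.92 CPM.

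Genes of interstitial macrophages and monocytes (19, all tested) had 2 higher and 4 lower, where all genes tested had 16.6% higher and 14.3% lower. The median log2 fold change was 0.02, and summed ranges were 2076.66 to 2283.66 CPM in wild type and 1883.3 to 2091.04 CPM in the knockout. The genes of this list that fell were Cd14 (from 14.9 ± 1.45 to 10.3 ± 1.11 CPM), Folr2 (from 3.52 ± 0.39 to 2.04 ± 0.36 CPM), Cd163 (from 6.39 ± 1.33 to 3.67 ± 0.53 CPM) and Lyve1 (from 157 ± 5.35 to 112 ± 20.6 CPM). Folr2, Cd163 and Lyve1 mark resident macrophages beside vessels, and Lyve1 also lymphatic endothelium. C1qc rose from 66.1 ± 6.32 to 84.6 ± 6.69 CPM, and Ly6c1 rose too. The other 13 genes, among them C1qa, C1qb, Pf4 and Stab1, were not called. Interstitial macrophages share Mrc1, and their part in its value was not tested.

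Dendritic cell genes (8 tested) had 3 higher, the class II genes H2-Aa, H2-Ab1 and H2-Eb1, and 1 lower, Ccr7. H2-Ab1 rose from 482 ± 35.7 to 754 ± 63.4 CPM (limma adjusted p = 0.000148). The summed list was 676.36 to 777.51 CPM in wild type lungs and 1014.17 to 1150.67 CPM in the knockout. Without the 3 class II genes, which other antigen-presenting cells share, it was lower in every knockout library, at 27.81 to 32.5 CPM in wild type against 23.29 to 27.25 CPM. Of the genes in that smaller sum only Ccr7 was called, from 7.36 ± 0.99 to 4.26 ± 1.10 CPM. The knockout means of Batf3, Irf4 and Clec9a were higher than those of wild type, and the others were lower. Flt3, Clec9a, Itgae, Irf4 and Clec10a were below the filter. Eosinophils, which share Siglecf, had 1 tested gene of 4, which was not called: Ccr3 stood at 1.01 ± 0.17 and 1.30 ± 0.71 CPM, and Prg2 at 0 to 0.51 and 0.07 to 1.06 CPM. The neutrophil list (8 tested) had 0 higher and 1 lower, Ltf, with sums of 267.47 to 401.62 and 221.58 to 441.84 CPM. The part of these cells in the values of Itgax and Siglec5 was not tested.

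Adipocyte genes (8 tested) had 1 higher, Lipe (from 13.8 ± 2.81 to 21.3 ± 2.87 CPM), and 3 lower, Fasn, Plin1 and Retn, with a median log2 fold change of -0.57. Their sum was 124.38 to 241.28 CPM in wild type lungs and 102.28 to 168.85 CPM in the knockout, and Adipoq, a defining fat cell gene, stood at 5.13 ± 2.54 and 2.66 ± 1.42 CPM (limma adjusted p = 0.118). Genes of lipofibroblasts and alveolar fibroblasts (10 tested) had 3 higher, Fgf10, Pdgfra and Limch1, and 2 lower, Tcf21 and Inmt, with sums of 2778.6 to 3248.33 and 2208.83 to 2518.85 CPM. The 3 lower adipocyte calls became 1 under the stricter filter, with the replicate block and without wild type library 1, 2 or 3 or knockout library 2 or 3, and the 3 higher fibroblast calls became 1 with edgeR and without wild type library 1 or knockout library 3 or 4. The fibroblast sum is mostly Inmt, and without it ran from 1394.29 to 1637.81 CPM in wild type and from 1439.11 to 1670.93 CPM in the knockout. The part of either cell type in the rise of Lpl was not tested.

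Type 2 cell genes (10 tested) had 1 higher, the lamellar body transporter Abca3, and 5 lower, Sftpc, Sftpa1, Lpcat1, Slc34a2 and Napsa. Their sum was 79850 to 96427 CPM in wild type and 47776 to 59589 CPM in the knockout, with no overlap. CPM are shares of a library, so these abundant genes bear on the scale of all others. With TMM scaling, which discounts such genes, the median log2 fold change of all genes moved by -0.02 and 4 of the 10 alveolar macrophage genes were again called higher. The call of Sftpc itself ended with quantile normalization (adjusted p = 0.171). Lymphatic endothelial genes (5 tested) had 1 higher, Ccl21a, and 2 lower, Lyve1 and Pdpn, with sums of 345.55 to 406.19 and 219.77 to 289.14 CPM.

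**Figure D4:**
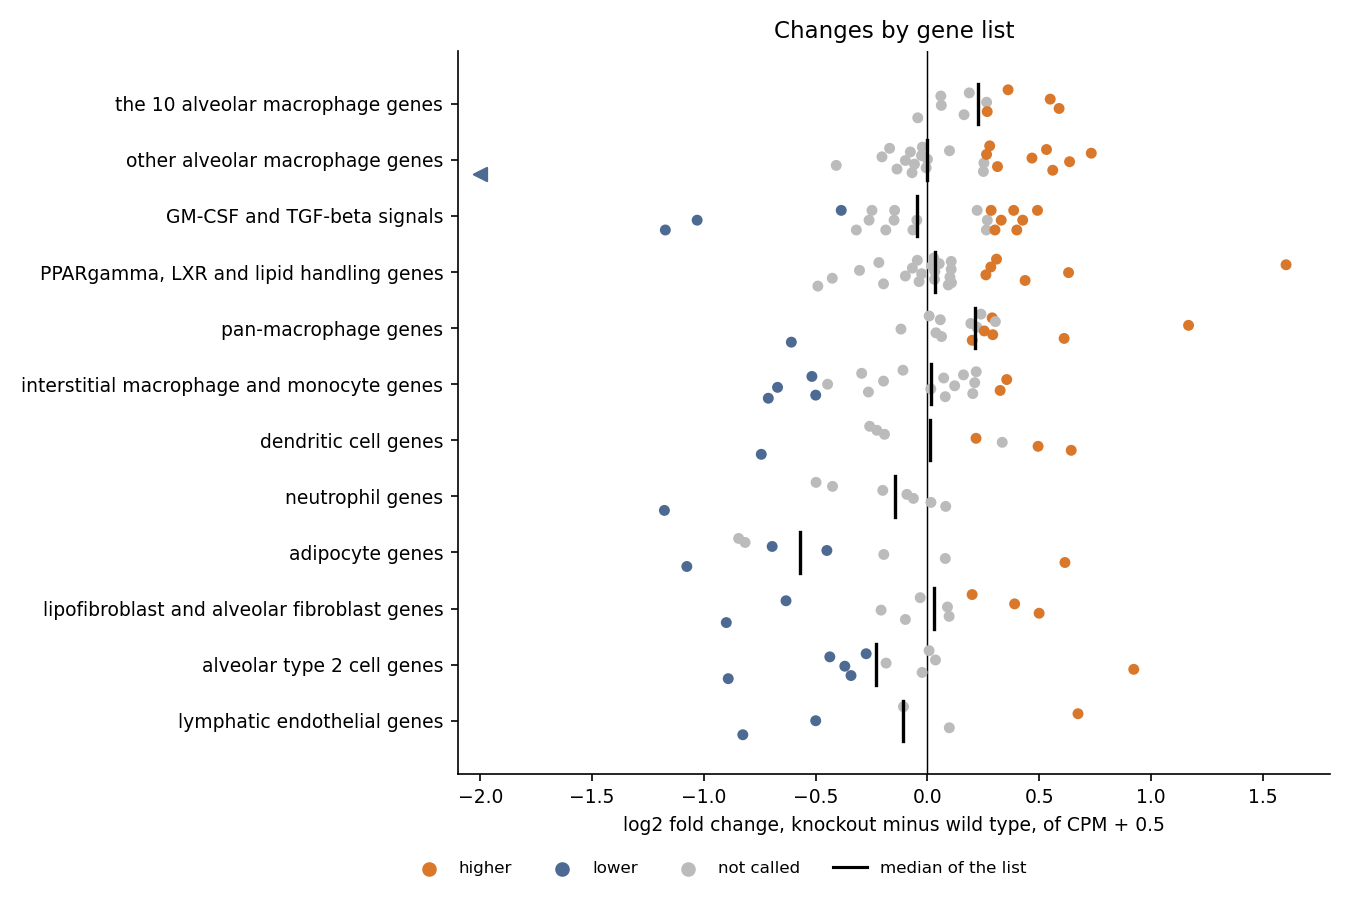
Log2 fold change (knockout minus wild type, of CPM + 0.5, horizontal axis) of each tested gene, by list; orange is called higher, blue called lower, grey not called, black bars are list medians, and the triangle at the left edge is Fabp5 (-5.58), drawn at the axis limit. The median is 0.23 for the 10 alveolar macrophage genes, 0.21 for pan-macrophage genes and -0.00 for the other alveolar macrophage genes. Over all genes tested, 16.6% are called higher and 14.3% lower.

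To describe which genes ran parallel to each of the 10 across libraries, log2 values were centred on their mean and compared by the root mean square difference over 8 libraries, among 10200 genes of at least 5 CPM. Nearest to Marco were Mfsd6 (0.0614), Six5 and Tnfaip2. Nearest to Abcg1 were Acot9 (0.0752), Specc1 and Ccdc76, nearest to Lpl were Btg1 (0.0540), Sh3bp2 and Chrac1, and nearest to Csf2ra were Tmem43 (0.0395), Rab5b and Gmip. Mrc1 lay nearest to Gfpt2 (0.0615), Itgax to Spcs2 (0.0230), Pparg to Epm2a (0.0643), Abca1 to Zfp738 (0.0574) and Csf2rb to Ccdc163 (0.0613). Among the other 9 members alone, far fewer candidates, the closest for Marco was Lpl (0.153), for Abcg1 Marco (0.181), for Lpl Csf2ra (0.0931) and for Csf2ra Itgax (0.0865). With 8 libraries and many candidates such nearness is a description of these values.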

How the data were processed

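Per the labels, total RNA of 8 lungs (integrity number above 7.0) was cap-trapped and sequenced as single-end reads of 75 nt. Tools in the submitters' processing notes are HISAT2 2.0.5, BWA 0.7.12-r1039 and edgeR, and the build is mm9. Tag assignment to genes, annotation and use of strand were not given in the sources used here. The authors deposited CPM with 2 decimals for 15728 genes. Reads were recovered from the CPM steps, with 100% of low values whole within 0.1 reads; 3 reads equal 0.161 to 0.231 CPM, a limit for counting error only.

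Groups came from the labels, and litters or shared extractions are not described there, so p-values measure only the spread between these libraries, which may be partly technical. Genes reaching 1 CPM in 4 or more libraries were tested with limma 3.58.1 (R 4.3.3) on log2(CPM + 0.5), with a variance trend, two-sided, with Benjamini-Hochberg adjustment over all genes. The code was checked on simulated data. Alternatives were pseudocounts of 1 and 0.1, no filter, a mean of at least 5 CPM, TMM, median-ratio and quantile scaling, edgeR 4.0.16 and DESeq2 1.42.0 on recovered reads, a replicate block, and leaving out each library.

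The 10 genes, the lists and the rule for named genes (Nos3, per list up to 4 called with the smallest adjusted p and up to 2 uncalled with the highest mean, and the 3 nearest profiles) were chosen with earlier results of these data known. Genes with values outside that rule (Csf2, Csf2rb2, Csf1, Csf1r, Jak2, Klf4, Nr1h3, Nr1h2, Cd36, Cd68, Emr1, C1qc, Car4, Prg2) and the 4 pairs were chosen after values were seen. Pair ratios were tested by exact permutation with scipy 1.17.1. Copies were sought with blastn 2.17.0 in GENCODE M21 (at least 97% identity over at least 75 nt of the first 200 nt). None of the 10 genes overlaps another listed gene there. Promoter sequences are from RefSeq. A few genes under this rule are not reported here.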

Additional observations from a re-analysis of the deposited data

Results flagged for a closer look

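The lowest library of a group lay further from the other 3 than Dixon's 95% limit for 4 values in 4 of 92 groups examined, where chance alone gives about 1 in 20. Abcg1 in wild type library 1 stood at 30.32 CPM against 37.43 to 38.4 CPM in the others, and its rise was called with and without that library. Chi3l3 in knockout library 2 stood at 130.78 CPM against 288.15 to 314.52 CPM. Csf2 in knockout library 3 stood at 7.32 CPM against 8.02 to 8.14 CPM, and Jak2 in wild type library 1 at 26.68 CPM against 29.58 to 30.07 CPM.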

How the results depend on the processing

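Marco, Abcg1 and Lpl stayed higher and called in all 18 alternatives, with adjusted p of at most 0.00561, 0.00318 and 0.0149. Of the 10 genes 3 to 5 were called higher and 0 lower in every setting: 3 with DESeq2 and without any wild type library or knockout library 1 or 3, and 5 without knockout library 4. Leaving out 1 library moved the log2 fold change of Pparg between -0.16 and 0.070, that of Siglec5 between -0.019 and 0.15, and the Csf2ra over Csf2rb ratio change between -0.022 and 0.16, the last turning negative without knockout library 4. The cause of these turns was not tested. With a replicate block, 4 of the 10 genes and 2384 of all genes were called higher. Residuals of same-numbered libraries correlated at -0.00287 to 0.0646, so the numbers were not taken to pair animals. Where calls were few, list counts also moved: 1 or 2 lipid genes fell under all 3 scalings, both count tools and without knockout library 1, 2 or 3, 1 interstitial macrophage gene rose with quantile normalization and without wild type library 3 or 4 or knockout library 3, and 2 or 3 neutrophil genes fell under the scalings, the count tools, the block and without wild type library 4 or knockout library 1. Among all log2 results of genes and pairs, 836 stayed the same, 17 lost a call, 8 gained one and 4 turned. For a gene, the same means that direction and side of the threshold were kept. Pair ratios were not tested again, and there it means a kept direction and a shift smaller than the larger SD of the genotypes. At 24 to 44 reads, counting noise limits Csf2rb most, and it could not be tested under the stricter filter.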
